A study of Mus musculus with 36 samples.

Results

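Thyroid hormone leaves the thyroid mostly as thyroxine (T4), travels in blood on carrier proteins made largely in the liver, enters cells through membrane transporters, and is converted to the active triiodothyronine (T3) or degraded by deiodinases. T3 binds nuclear receptors encoded by Thra and Thrb. In liver the receptor TRβ mediates much of the response to T3, and Dio1 itself is a known T3-induced gene. The genes described here were chosen by symbol: Dio1, Ttr, Serpina7, Thra, Thrb, Klf9 and Slc16a10, which are 7 of the 21889 gene symbols measured. Their RNA was measured in the livers of 36 male C57BL/6 mice (C57BL/6J in the study's methods), 3 at each of 12 ages. These were Day -2, counted back from birth, then Day 0 with Days 1, 3 and 5, then Days 10, 15 and 20, and after weaning Days 25, 30, 45 and 60. All mice were untreated and without an engineered allele, and the mice of an age came at random from several litters. Day 0 livers were taken right after birth and before suckling, those of Days 3 to 60 at a fixed morning hour, and weaning was on day 21.

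Levels are given in FPKM, which scales fragments by transcript length and by the mapped fragments of the library. Levels of different genes are thus on 1 scale, apart from a transcript-length trend that differed between libraries and is described below. Differences between ages are on the log2(FPKM + 1) scale, with the standard error (SE) and an adjusted p from limma (Benjamini-Hochberg over 11149 genes). This scale understates the change of genes below about 1 FPKM. A gene entered the test when its mean reached 1 FPKM in at least 1 age. Of the 7 genes, 6 did. Thrb did not, with a highest age mean of 0.919 FPKM, and its tests come from a fit without the filter.

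Before the results, the libraries were checked against their labels. The summed FPKM of a library ran from 353712 to 450597, and mice of the same age correlated at r = 0.971 or above (median 0.988 over 36 pairs). The 4 hepatocyte markers measured summed to 9201 FPKM or more in every mouse. Erythroid markers (6 genes) had a mean sum of 156544 FPKM at Day -2 and of 681 FPKM at Day 60. Pancreatic acinar markers (5 genes) exceeded 100 FPKM in 19 of 36 mice, with 14241 FPKM in Day 60 mouse 1 and 3848 FPKM in Day 0 mouse 3. Skeletal muscle markers (5 genes) reached 1168 FPKM in Day 0 mouse 1. The calls against Day 60 that changed without Day 60 mouse 1 are therefore given below.

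For 3 of these genes, the 250 bases before an annotated start are printed from RefSeq (mouse build GRCm38.p6), on the gene's strand. Dio1 and Serpina7 are shown because they had the largest ranges over the ages, and Thrb because it is the receptor whose level was low throughout. Of the 7 genes, 5 were matched to a RefSeq window. Thrb and Serpina7 each had a further annotated start, described below, and which start these livers use was not tested. Capitals mark AGGTCA (a nuclear receptor half-site) or GTTAAT (an HNF1 half-site), each on either strand, so that ATTAAC is GTTAAT on the other strand, and TATAAA, the core promoter box of that name, on the gene's strand. The motifs do not overlap each other. Among 32851 windows of this length, 14.02% held AGGTCA, 6.43% held GTTAAT and 7.59% held TATAAA.
Dio1, chr4:107307169-107307418, minus strand: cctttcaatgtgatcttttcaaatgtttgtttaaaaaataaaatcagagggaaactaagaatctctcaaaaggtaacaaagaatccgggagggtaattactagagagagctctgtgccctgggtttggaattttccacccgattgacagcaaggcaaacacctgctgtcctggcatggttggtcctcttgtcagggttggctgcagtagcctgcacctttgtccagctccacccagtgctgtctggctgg
Serpina7, chrX:139085220-139085469, minus strand: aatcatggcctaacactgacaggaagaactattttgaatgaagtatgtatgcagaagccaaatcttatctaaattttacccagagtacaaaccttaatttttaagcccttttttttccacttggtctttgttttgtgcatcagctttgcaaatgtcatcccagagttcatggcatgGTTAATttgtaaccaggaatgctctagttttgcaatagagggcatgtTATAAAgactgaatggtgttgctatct
Thrb, chr14:17660710-17660959, plus strand: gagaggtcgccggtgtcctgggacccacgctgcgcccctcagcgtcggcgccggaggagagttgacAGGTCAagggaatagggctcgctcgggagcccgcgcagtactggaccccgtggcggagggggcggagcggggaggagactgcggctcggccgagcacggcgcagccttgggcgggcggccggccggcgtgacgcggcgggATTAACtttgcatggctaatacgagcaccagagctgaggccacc

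The Dio1 window held none of the 3 motifs and had a GC content of 46.8%. In the Serpina7 window, the first base of GTTAAT lay at -74 and that of TATAAA at -27 from the start, and the GC content was 36.4%. In the printed Thrb window, AGGTCA began at -184 and the reversed GTTAAT at -44, and the GC content was 71.6%. The window of the other Thrb start (chr14:17981394-17981643) held TATAAA at -167 and neither other motif, with a GC content of 44%. That of the other Serpina7 start (chrX:139085237-139085486) held GTTAAT at -57 and TATAAA at -10, with a GC content of 36%. The windows are in another genome build than the expression files, which use mm9, and a match of letters is not evidence that a factor binds there.

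Dio1 encodes the type 1 deiodinase, a selenoenzyme that makes T3 from T4 and clears inactive iodothyronines. It lies on chromosome 4 (mm9, 106964070 to 106979774, minus strand; ENSMUSG00000034785.8). Its mRNA was near 0 before birth and had the widest range of the 7 genes, with a mean at Day 20 that was 2007 times that at Day -2. The 3 mice of Day -2 had 0.0736, 0.0351 and 0.0281 FPKM, those of Day 0 0.209, 0.125 and 0.370 FPKM, and those of Day 1 had 0.851, 1.499 and 0.699 FPKM. These values rest on few fragments, an estimated 3.9 to 10.3 per library at Day -2. At Day 3 the values were 3.67, 5.50 and 5.24 FPKM, at Day 5 9.88, 16.6 and 12.05 FPKM, and at Day 10 27.8, 33.8 and 30.2 FPKM. Day 15 mice had 48.5, 64.7 and 69.7 FPKM and those of Day 20 had 68.8, 99.0 and 106.9 FPKM.

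From Day -2 to Day 15 the lowest mouse of each age was above the highest mouse of the age before, while Day 15 and Day 20 overlapped. After Day 20 the level stayed in 1 range, with age means of 82.1 ± 3.30 (SD, n = 3), 91.5 ± 17.2 and 78.1 ± 7.35 FPKM at Days 25, 30 and 45. At Day 60 the mean was 50.03 ± 19.5 FPKM, below every Day 45 mouse in each of the 3 mice, which had 61.1, 61.5 and 27.5 FPKM. Day 60 mouse 3 is the low one. The difference of Day -2 from Day 60 was -5.52 ± 0.23 log2 units (SE; limma adjusted p = 1.09e-18), and that of Day 1 from Day -2 was 0.93 log2 units (adjusted p = 0.00138).

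Dio1 was also called higher at Days 20, 25 and 30 than at Day 60, by 0.92, 0.79 and 0.93 log2 units (limma adjusted p = 0.00496, 0.0313 and 0.0179). Without Day 60 mouse 3, none of the 3 was called (0.55, 0.41 and 0.55 log2 units; limma adjusted p = 0.0809, 0.261 and 0.156), and the other 2 Day 60 mice averaged 61.3 FPKM. In liver as a whole, fewer cells of a type and less RNA per cell cannot be told apart. Over the ages in which Dio1 rose, the mean sum of the erythroid markers was 156544 FPKM (Day -2) and then 3909.9 FPKM (Day 20), and that of the hepatocyte markers 9953 and then 53469 FPKM. Alb, the main serum protein of hepatocytes and 1 of the 4 markers, was 9.14 times as high at Day 60 as at Day -2. Dio1 was 1097 times as high, a fold that rests on an estimated 3.9 to 10.3 fragments per library at Day -2. Of the 4 hepatocyte markers, 3 were called lower at Day -2 than at Day 60 and 1 higher, where 75.1% of all genes were called. The part of cell types in the result was not tested.

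**Figure D1:**
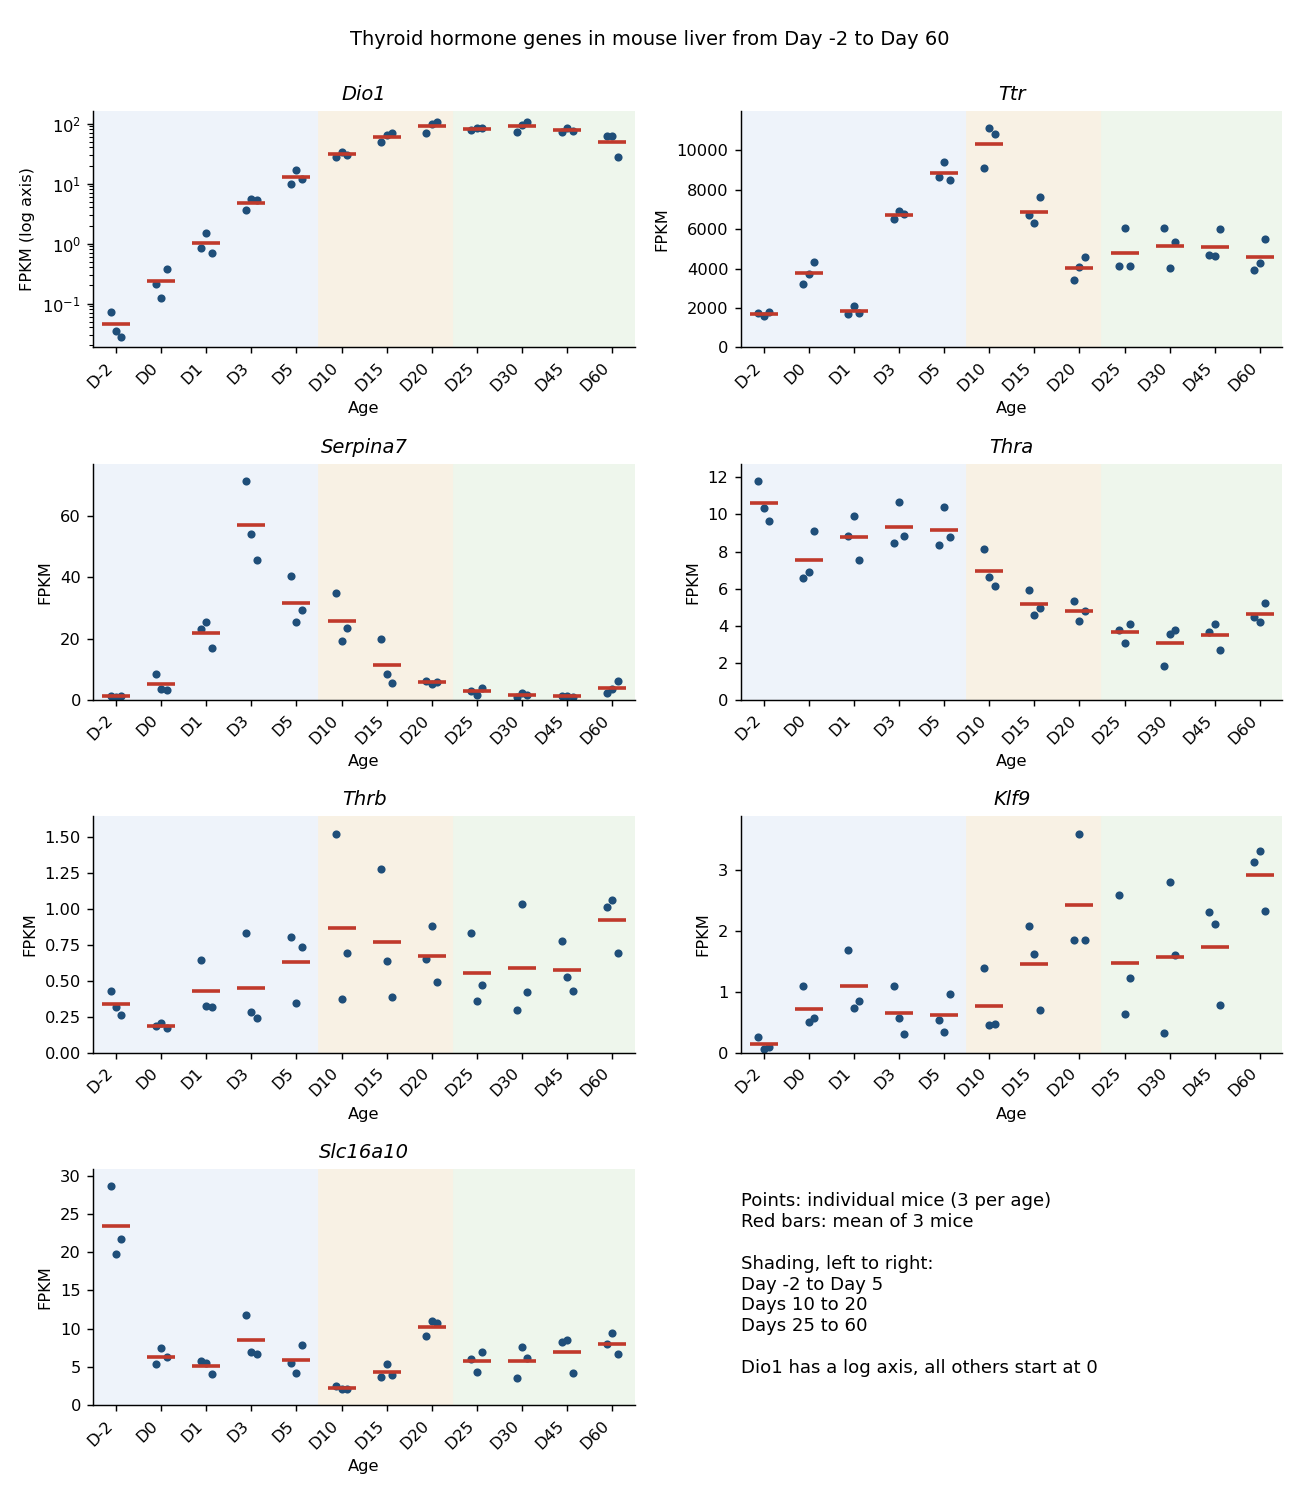
FPKM of each of the 7 genes (y axis; a log axis for Dio1, linear from 0 for the others) at the 12 ages (x axis), with 1 point per mouse and a red bar for the mean of the 3 mice. The mean of Dio1 is 0.0456 FPKM at Day -2 and 91.6 FPKM at Day 20, Serpina7 peaks at 57.1 FPKM at Day 3, and Ttr peaks at 10342 FPKM at Day 10.

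The carrier genes peaked at different ages. Ttr encodes transthyretin, a carrier of T4 and of retinol-binding protein. It is a single-transcript gene in the annotation, on chromosome 18 (mm9, 20823751 to 20832825, plus strand). It was already abundant before birth, with 1720.2, 1574 and 1815 FPKM at Day -2. The mice of Day 0 had 3237, 3724 and 4337 FPKM, and those of Day 1 fell back to 1696, 2101 and 1722 FPKM, a fall with no overlap between the ages. Day 3 mice had 6488, 6899.7 and 6745 FPKM and Day 10 mice had 9098, 11109.8 and 10817 FPKM, the highest of any age. The mean fell to 4022 ± 604 FPKM at Day 20 and the 4 later age means lay between 4564 and 5155 FPKM. Days 20 to 60 overlapped from each age to the next.

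Against Day 60, Ttr was lower at Day -2 (-1.41 log2 units, limma adjusted p = 1.06e-08) and higher at Day 10, by 1.19 log2 units (adjusted p = 8.4e-07). Day 1 did not pass the test against Day -2 (0.11 log2 units, adjusted p = 0.62). The Day 0 rise was 2.21-fold in the means and is given without a test. Ttr was called higher at Day 3 (0.57 log2 units, adjusted p = 0.00349) and Day 5 (0.97 log2 units, adjusted p = 8.99e-06) than at Day 60, and with upper quartile scaling neither was called (-0.06 and 0.34 log2 units, adjusted p = 0.838 and 0.175).

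Serpina7 encodes thyroxine-binding globulin, the serum protein that binds T4 with high affinity. It lies on the X chromosome (mm9, 135613796 to 135619775, minus strand). Its mRNA was highest at Day 3 and lowest at Day 45. The mice of Day -2 had 1.33, 1.04 and 1.42 FPKM, those of Day 0 had 8.42, 3.68 and 3.37 FPKM, and those of Day 1 had 23.2, 25.3 and 16.98 FPKM. The highest Day 0 value, 8.42 FPKM, was that of mouse 1, which carried the skeletal muscle markers. At Day 3 the mice had 71.5, 54.1 and 45.6 FPKM, and at Day 5 they had 40.4, 25.6 and 29.4 FPKM. The ranges rose without overlap at each step to Day 3 and fell without overlap from Day 3 to Day 5.

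The later age means of Serpina7 were lower at each step to Day 45, mostly with overlap. Day 15 mice had 19.8, 8.61 and 5.60 FPKM, those of Day 20 had 6.31, 5.10 and 5.70 FPKM, and those of Day 45 had 1.24, 1.22 and 0.918 FPKM, the lowest age. Day 60 mice had 2.15, 3.46 and 6.32 FPKM, all above those of Day 45. The mean at Day 3 was 50.7 times that at Day 45. Day 1 exceeded Day -2 by 3.32 log2 units (limma adjusted p = 3.07e-09), and Days 25 to 60 were below Days 10 to 20 (-2.01 log2 units, adjusted p = 2.89e-10).

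Days 10 to 20 did not differ by the test from Day -2 to Day 5 in Serpina7 (-0.17 log2 units, adjusted p = 0.374). The earlier ages hold both the low values of Day -2 and the peak of Day 3. With upper quartile scaling the sign of this difference was positive (0.25 log2 units, adjusted p = 0.194). The call of Serpina7 at Day -2 against Day 60 (-1.05 log2 units, adjusted p = 0.00683) was lost without Day 60 mouse 3 (-0.73 log2 units, adjusted p = 0.072).

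On the FPKM scale, Ttr mRNA exceeded Serpina7 mRNA in every mouse. Within ages the 2 genes correlated in opposite directions with the transcript-length trend of the libraries (r = -0.62 for Ttr and 0.55 for Serpina7, below). The ratios were not corrected for this trend, and its part in them was not tested. The ratio of the 2 levels averaged 1360.0 ± 127 (SD, n = 3) at Day -2, reached its lowest mean of 85.9 ± 14.3 at Day 1, and averaged 4713 ± 1593 at Day 45 and 1309 ± 483 at Day 60. The 3 ratios of Day 1 (73.2, 83.0 and 101.4) and those of Day 45 (3773, 3812 and 6552) did not overlap, and the ratios of Day 60 (1825, 1235 and 868) were all below those of Day 45.

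Of the receptor mRNAs, Thra had its highest mean before birth and Thrb at Day 60. Thra encodes the T3 receptor TRα and, by splicing, a form that does not bind T3. The deposited table has 1 value for the gene, so these forms are not separated. Thra lies on chromosome 11 (mm9, 98601952 to 98630320, plus strand). Its mice had 11.8, 10.3 and 9.64 FPKM at Day -2, 8.36, 10.4 and 8.78 FPKM at Day 5, and 3.78, 3.04 and 4.12 FPKM at Day 25. The highest age was Day -2, and the lowest was Day 30, with 1.82, 3.58 and 3.79 FPKM. The values fell without overlap from Day -2 to Day 0, which had a mean of 7.52 FPKM, and overlapped from each age to the next up to Day 5. They also fell without overlap from Day 5 to Day 10, from Day 10 to Day 15 and from Day 20 to Day 25. They rose without overlap from Day 45 to Day 60, where the mice had 4.47, 4.18 and 5.21 FPKM.

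Thra was higher at Day -2 than at Day 60 by 1.04 ± 0.17 log2 units (limma adjusted p = 2.91e-06), which compares with a median of 0.56 log2 units over the 11149 genes. With upper quartile scaling the median was 0.15 and the Thra difference 0.51 log2 units (adjusted p = 0.001). Days 10 to 20 were below Day -2 to Day 5 (-0.61 log2 units, adjusted p = 3.93e-07; median of all genes -0.35), by -0.18 log2 units with upper quartile scaling (adjusted p = 0.0234; median -0.02), and Days 25 to 60 were below Days 10 to 20 (-0.50 log2 units, adjusted p = 3.38e-05). Thra shares 263 exon bases (5.70% of 4614) with Nr1d1 on the other strand, at chromosome 11, 98629471 to 98629733 (mm9). The libraries do not mark the strand, so reads there cannot be told apart. Nr1d1 encodes the clock receptor REV-ERBα and had 1.06 ± 0.052 FPKM at Day -2 and 28.3 ± 1.37 FPKM at Day 60, where every mouse was above every mouse of the earlier ages.

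Thrb lies on chromosome 14 (mm9, 18493474 to 18870602, plus strand). Its level was low and variable. The mice of Day -2 had 0.428, 0.319 and 0.257 FPKM, and those of Day 0 had 0.188, 0.202 and 0.170 FPKM, the lowest age. Day 10 mice had 1.52, 0.375 and 0.693 FPKM, a range that spans most other ages, and those of Day 60 had 1.01, 1.06 and 0.688 FPKM. At Day 0 the estimate was 80.0 to 94.6 fragments per library. Of the 11 neighbouring pairs in the order of the Thrb age means, 1 did not overlap.

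In the fit without a filter, Thrb was lower than at Day 60 at Day -2 (-0.52 log2 units, limma adjusted p = 0.029) and at Day 0 (-0.69 log2 units, adjusted p = 0.00571), and was not called at the later ages. Without Day 60 mouse 3, its lowest Day 60 mouse, the Day 60 mean was 1.03 FPKM and Thrb passed the filter through that age alone. It was then also called lower at Day 1 (-0.52 log2 units, limma adjusted p = 0.045) and Day 3 (-0.51 log2 units, adjusted p = 0.0471). The filter and these comparisons rest on the same 2 Day 60 mice, so the 2 calls add no support. With all mice and no filter, neither was called (limma adjusted p = 0.076 and 0.0852). Days 10 to 20 exceeded Day -2 to Day 5 by 0.32 log2 units (adjusted p = 0.0101), and Days 25 to 60 did not differ from Days 10 to 20 by the test (-0.08 log2 units, adjusted p = 0.605).

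The ratio of Thra to Thrb FPKM averaged 32.5 ± 4.94 at Day -2 and 40.9 ± 10.9 at Day 0, and 5.32 ± 1.97 at Day 60. The 3 mice of Day 0 had ratios of 35.2, 34.1 and 53.5, and those of Day 60 had 4.43, 3.95 and 7.58. Every mouse of Day -2 and Day 0 was above every mouse of Days 10 to 60, of which the highest was 17.7 at Day 10. After adding 1 FPKM to both genes the means were 8.67 at Day -2 and 2.97 at Day 60. Thra mRNA exceeded Thrb mRNA in every mouse. Within ages both genes correlated with the transcript-length trend of the libraries (r = 0.57 for Thra and 0.75 for Thrb, below). At Day 3 the mice had length slopes of 0.113, -0.0350 and -0.0597 and ratios of 10.2, 37.9 and 36.7. The ratios were not corrected for this trend, and its part in them was not tested.

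**Figure D2:**
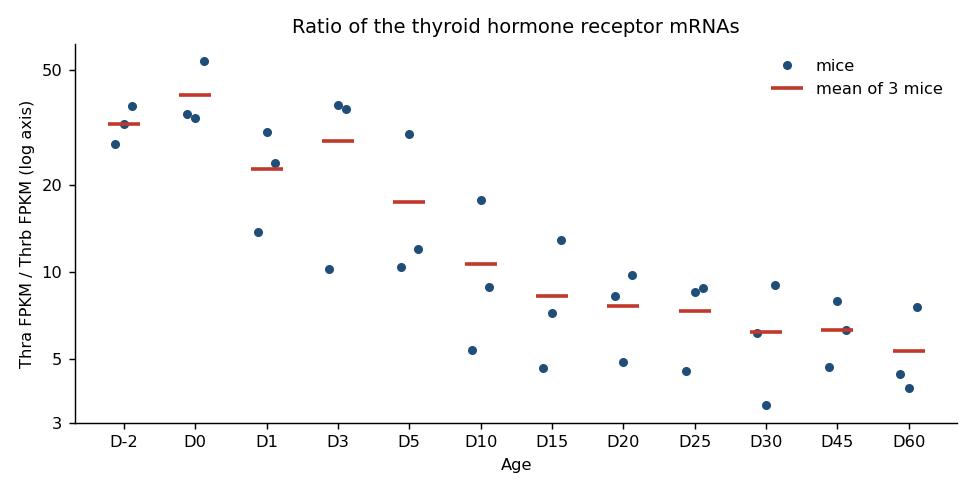
Ratio of Thra to Thrb FPKM (y axis, log scale) at the 12 ages (x axis), with 1 point per mouse and a red bar for the mean of 3 mice. The mean goes from 32.5 at Day -2 and 40.9 at Day 0 to 5.32 at Day 60, with a wide spread within Days 3 to 10. The ratios are not corrected for the transcript-length trend, which differed between libraries.

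Klf9 encodes a zinc finger transcription factor that is induced by T3 and by glucocorticoids. It lies on chromosome 19 (mm9, 23215716 to 23241401, plus strand). The mice of Day -2 had 0.261, 0.0543 and 0.0973 FPKM, the lowest age, and those of Day 0 had 1.09, 0.495 and 0.574 FPKM. These first 2 ages did not overlap, and the means differed 5.22-fold. The highest Day 0 value, 1.09 FPKM, was that of mouse 1, which carried the skeletal muscle markers. The mice of Day 20 had 1.84, 3.59 and 1.84 FPKM, those of Day 30 had 0.319, 2.80 and 1.60 FPKM, and those of Day 60 had 3.13, 3.31 and 2.32 FPKM. Day 60 was the highest age and was above every Day 45 mouse.

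Klf9 was lower at Day -2 than at Day 60 (-1.78 log2 units, limma adjusted p = 1.53e-05), and also lower at Days 0, 1, 3, 5 and 10. Day 1 exceeded Day -2 by 0.85 log2 units (adjusted p = 0.0294). That call was lost when Day -2 mouse 2, Day -2 mouse 3 or Day 1 mouse 1 was left out (0.66 to 0.83 log2 units, adjusted p = 0.067 to 0.136), and with upper quartile scaling (0.77 log2 units, adjusted p = 0.0505). Livers of Days 3 to 60 came from 1 morning hour. For the earlier ages the hour of collection and the age cannot be told apart.

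Slc16a10 encodes MCT10, a transporter of aromatic amino acids that also carries T3 and T4. It lies on chromosome 10 (mm9, 39753341 to 39862062, minus strand). It was highest before birth, with 28.6, 19.7 and 21.8 FPKM at Day -2, and 5.33, 7.46 and 6.25 FPKM at Day 0. Day 3 mice had 11.8, 6.97 and 6.69 FPKM, above every mouse of Day 1. The lowest age was Day 10, with 2.48, 2.16 and 2.07 FPKM. Day 20 mice had 9.07, 10.9 and 10.7 FPKM, above every mouse of Day 15 and every mouse of Day 25. The mean thus had local maxima at Day 3 and Day 20. Day 25 mice had 6.01, 4.36 and 6.92 FPKM.

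Slc16a10 was lower at Day 1 than at Day -2 (-1.98 log2 units, limma adjusted p = 8.83e-08). Over the same step the mean sum of the erythroid markers went from 156544 to 28942 FPKM, and their part in the result was not tested. Around the maximum at Day 20, erythroid sums averaged 3285 FPKM (Day 15, range 2490 to 4498), 3910 FPKM (Day 20, 3423 to 4573) and 2485 FPKM (Day 25, 2392 to 2589). Of these ages, Day 20 thus had the highest mean in the erythroid sums as well as in Slc16a10. Whether the erythroid cells contributed to this maximum was not tested. The Day 25 level of Slc16a10 was below that of Day 20, which missed the threshold (-0.75 log2 units, adjusted p = 0.0606). It passed with upper quartile scaling (adjusted p = 0.0348), with a filter at 5 FPKM (0.0458), and without Day 3 mouse 1, Day 30 mouse 1 or Day 45 mouse 3 (0.0357 to 0.0466). In Slc16a10, Days 10 to 20 were below Day -2 to Day 5 (-0.67 log2 units, adjusted p = 2.48e-05). With upper quartile scaling the difference was -0.24 log2 units and was not called (adjusted p = 0.0689).

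Set against Day 60, all 6 genes that entered the test differed in at least 1 age, as did 90.7% of the 11149 genes. The 6 genes are described by counts beside the share of all genes called. At Day -2, 6 of 6 were called against 75.1% of genes, at Day 0 3 of 6 against 63.9%, at Day 1 6 of 6 against 65.0%, and at Day 3 5 of 6 against 66.0%. At Day 5, 5 of 6 were called against 65.4% of genes, at Day 10 6 of 6 against 46.0%, and at Day 15 3 of 6 against 27.4%. At Days 20, 25 and 30, Dio1 was the 1 gene of 6 called, against 15.9%, 7.42% and 3.56% of genes. At Day 45 limma called 0 of 6, with 2 at an unadjusted p under 0.05, against 0.233% of genes.

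Several of these calls lay near the threshold and were lost, with the difference in the same direction, when 1 mouse was left out. Without Day 60 mouse 1, which carried the acinar markers, 0 of 6 were called at Day 15 (21.1% of genes). Ttr then differed by 0.50 log2 units (0.61 with all mice), Serpina7 by 0.94 (1.23) and Slc16a10 by -0.74 (-0.75), with limma adjusted p = 0.0503, 0.0698 and 0.0567. In the same fit 5 of 6 were called at Day 1 and at Day 10 (60.3% and 39.7% of genes). Counts at the other ages did not change. The call of Slc16a10 at Day 1 (-0.56 log2 units, adjusted p = 0.047) was lost in 16 of the 36 fits. In 12 of these the mouse left out was of another age, so the difference was the same and the adjusted p was between 0.05002 and 0.0518. In the other 4, without Day 1 mouse 2 or 3 or Day 60 mouse 1 or 2, the difference lay between -0.60 and -0.43 log2 units.

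The call of Dio1 at Day 10 (-0.61 log2 units) was lost without Day 10 mouse 1 or 3 or Day 60 mouse 1 or 2 (-0.60 to -0.42 log2 units, limma adjusted p = 0.0647 to 0.192). Thra at Day 10 (0.50 log2 units) was lost without Day 10 mouse 1 or Day 60 mouse 2 (0.40 and 0.44 log2 units, adjusted p = 0.0953 and 0.0683). At Day 15, Serpina7 was also lost without Day 15 mouse 1 (0.76 log2 units, adjusted p = 0.116), and Slc16a10 without Day 15 mouse 1 or 3 or Day 60 mouse 2 (-0.70 to -0.64 log2 units, adjusted p up to 0.101). Klf9 at Day 1 (-0.93 log2 units) was lost without Day 1 mouse 2 (-0.81 log2 units, adjusted p = 0.0577). Dio1 at Day 25 was lost without any 1 of the 3 mice of that age (0.77 to 0.82 log2 units, adjusted p = 0.0572 to 0.0984), and at Day 30 without Day 30 mouse 3 (0.80 log2 units, adjusted p = 0.0716). Thra at Day 30 passed without that mouse (-0.64 against -0.504 log2 units, adjusted p = 0.0444), and Slc16a10 at Day 5 without Day 5 mouse 3 (-0.63 against -0.42 log2 units, adjusted p = 0.0392).

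With upper quartile scaling, 5 of 6 were called at Day 0, 4 at Day 3 and 5 at Day 5. Of all 11149 genes, 7288, 6413 and 6059 were called at these ages with that scaling. Slc16a10 (-0.59 log2 units) and Ttr (-0.61 log2 units) were then also called at Day 0 (limma adjusted p = 0.0228 and 0.012), and Slc16a10 was called at Day 5 (-0.96 log2 units, adjusted p = 0.000627) in place of Ttr. Ttr at Day 0 was also called with TPM scaling (-0.39 log2 units, adjusted p = 0.0234) and with the length trend removed (-0.40 log2 units, adjusted p = 0.00738).

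**Figure D3:**
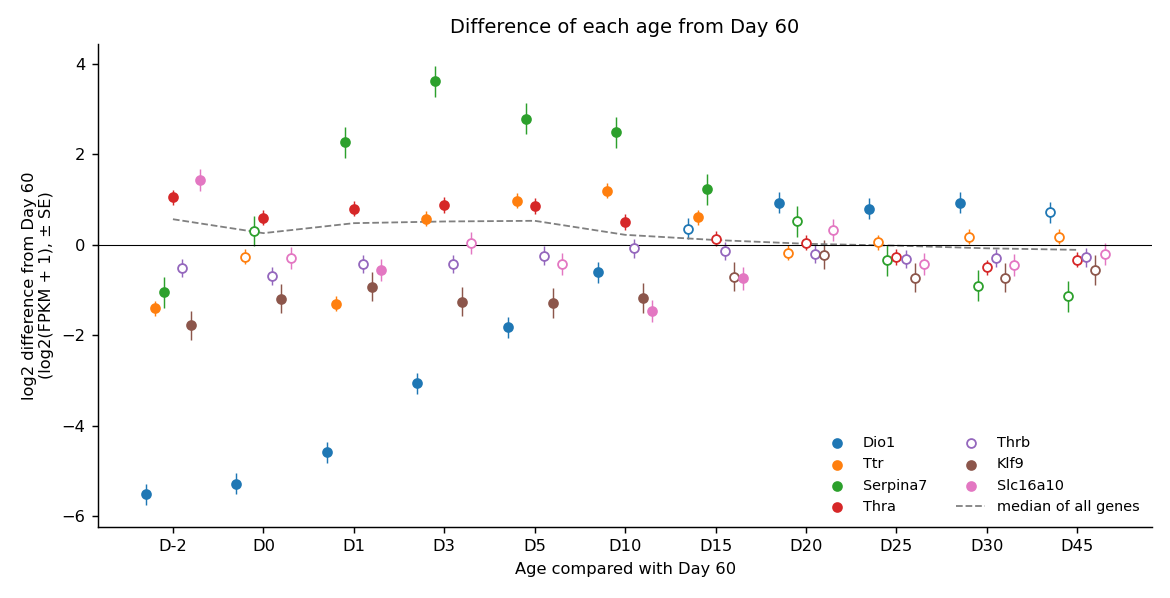
Difference of each earlier age from Day 60 (y axis, log2(FPKM + 1) ± SE) for the 7 genes. For the 6 tested genes, filled symbols passed the limma test at an adjusted p of 0.05 and open symbols did not. Thrb (below the filter, shown from the fit without it) is drawn open at every age, although it passed that fit at Day -2 and Day 0. The dashed line is the median of all genes, 0.56 at Day -2. Dio1 lies furthest below 0 at Day -2 (-5.52) and Serpina7 furthest above 0 at Day 3 (3.61).

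At birth, Day 1 against Day -2, 4 of 6 were called, with Dio1, Klf9 and Serpina7 higher and Slc16a10 lower, against 49.8% of genes. Thra (-0.25 log2 units, limma adjusted p = 0.225) and Ttr did not pass. At weaning, Day 25 against Day 20, limma called 0 of 6, with 2 at an unadjusted p under 0.05, against 7.19% of genes. Between Day -2 to Day 5 and Days 10 to 20, 5 of 6 were called against 75.8% of genes. Dio1 (4.28 log2 units), Ttr (0.83) and Klf9 (0.59) were higher at Days 10 to 20, and Thra and Slc16a10 were lower. Between Days 10 to 20 and Days 25 to 60, 5 of 6 were called against 57.3% of genes. Dio1 (0.39 log2 units) and Slc16a10 (0.36) were higher after weaning, Serpina7, Thra and Ttr (-0.44) were lower, and Klf9 did not pass (0.20 log2 units, adjusted p = 0.34).

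The low-expressed genes varied together among mice of the same age. After the age means were taken out, Thrb and Klf9 correlated at r = 0.82 over the 36 mice, and in 10 of 12 ages the same mouse was highest in both. Ttr and Klf9 had r = -0.72, and in 0 of 12 ages did the same mouse lead. The same libraries differed in how FPKM depended on transcript length. The slope of the log2 deviation per doubling of length ran from -0.291 in Day 30 mouse 1 to 0.232 in Day -2 mouse 1. Within ages this slope correlated with Klf9 (r = 0.80), Slc16a10 (0.76), Thrb (0.75), Thra (0.57) and Serpina7 (0.55), with Ttr negatively (-0.62), and little with Dio1 (-0.11). The points share their libraries, and no p is given. When the trend was taken out of every library, 29 of 30 values (the 6 tested genes at Day -2 against Day 60, at birth, at weaning and between the blocks) kept their side of the threshold, and the exception was Slc16a10 at weaning, which then passed (-0.67 log2 units, limma adjusted p = 0.0237).

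**Figure D4:**
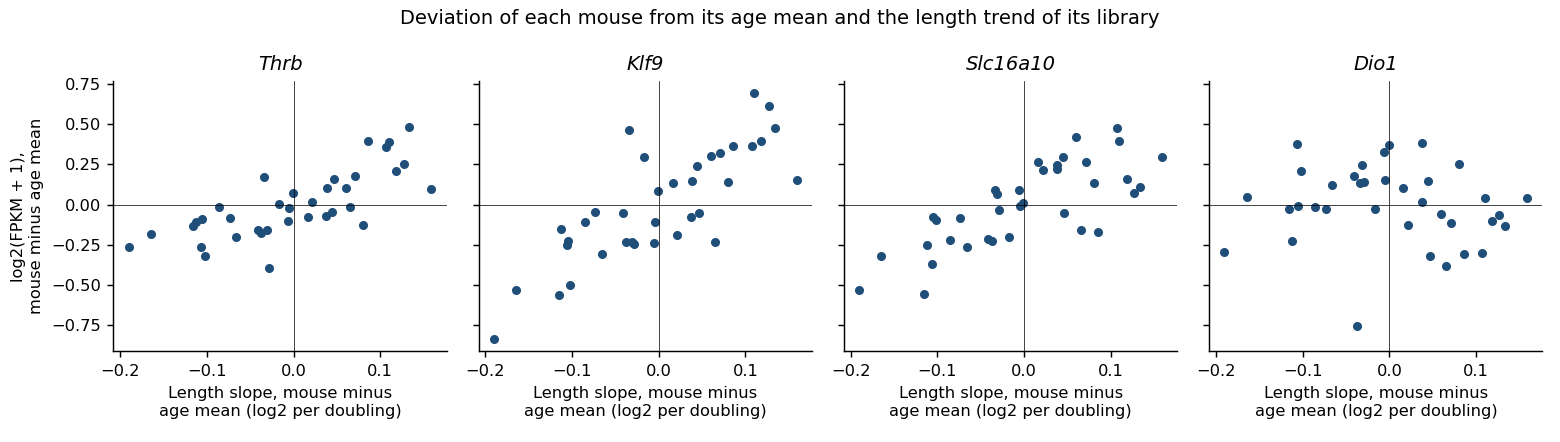
For Thrb, Klf9, Slc16a10 and Dio1, the log2(FPKM + 1) of each of the 36 mice minus its age mean (y axis) against the transcript-length slope of its library minus the age mean of that slope (x axis). Points climb from lower left to upper right for Thrb, Klf9 and Slc16a10 (r = 0.75, 0.80 and 0.76) and show no such slope for Dio1 (r = -0.11).

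The rest of the pathway was followed in 54 genes in 9 lists, of which 48 entered the test. Of these, 42 differed from Day 60 in at least 1 age, against 90.7% of all genes. The shares of all genes here and below count changes in either direction. At birth 26 of 48 changed, 22 of them upward, against 49.8% of all genes. With upper quartile scaling 23 of 48 rose and 4 fell at birth, and of all 11149 genes 2722 rose and 2655 fell. Between Day -2 to Day 5 and Days 10 to 20, 25 rose and 12 fell (31 and 5 with upper quartile scaling), where 75.8% of all genes changed. With that scaling 3539 of all genes rose and 3916 fell. After weaning 8 rose and 21 fell against Days 10 to 20 (57.3% of all genes), and at weaning itself 5 rose and 5 fell (7.19%).

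Of the 9 transporters tested, all 9 differed between Day -2 and Day 60, with 3 higher before birth and 6 lower, where 75.1% of all genes differed. Slc7a5, the light subunit of the LAT1 amino acid exchanger that also carries thyroid hormone, was lower at each block of ages than at the one before, with 51.1 ± 8.98 FPKM (Day -2) and 0.684 ± 0.241 FPKM (Day 60). Its partner Slc3a2 had 65.96 and 18.04 FPKM at these ages. Slco1a4, an organic anion transporter, had 0 FPKM in the 3 mice of Day -2 and peaked at 20.8 ± 5.75 FPKM at Day 20. Its relative Slco1a1 was below 0.5 FPKM in mean up to Day 20 and reached 25.01 ± 12.8 FPKM at Day 60. The bile acid transporter Slc10a1 rose at birth by 4.38 log2 units (limma adjusted p = 7.19e-18).

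The other deiodinases were below the filter and were not tested. Dio2, which makes T3 in other tissues, had age means of at most 0.0139 FPKM. Dio3, which inactivates T3 and T4, had a mean of 0.217 FPKM at Day 1, age means between 0.367 and 0.613 FPKM at Days 0, 3, 5, 10 and 15, and at most 0.0311 FPKM from Day 25 on. Iyd, which recovers iodide from iodotyrosines, had 6.72 ± 0.943 FPKM (Day -2) and 34.8 ± 5.64 FPKM (Day 15). Of 5 genes for selenoprotein synthesis, on which Dio1 translation depends, 1 was called at birth, where 49.8% of all genes changed. Sephs2 rose (45.2 to 155 FPKM, 1.75 log2 units) and the other 4 did not pass. All 6 conjugating enzymes were lower at Day -2 than at Day 60, where 75.1% of all genes differed. Ugt1a1, the bilirubin glucuronosyltransferase, had 0.0422 FPKM (Day -2) and 84.3 ± 32.4 FPKM (Day 1). Sult1d1 had 18.8 ± 10.002 FPKM (Day 20) and 5.13 ± 2.14 FPKM (Day 25). The Ugt1a genes share exons, so the split of reads among them is uncertain.

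Among receptor partners, Rxra had 15.2 ± 1.246 FPKM (Day -2) and 61.3 ± 10.5 FPKM (Day 20), and Rxrg peaked at 2.697 ± 0.213 FPKM (Day 25). Of 6 corepressors, 3 fell between Day -2 to Day 5 and Days 10 to 20 and 0 rose, with a median of -0.23 log2 units against -0.35 over all genes, of which 75.8% changed. Gps2, a subunit of the NCoR complex, had 38.97 ± 4.895 FPKM (Day -2) and 4.35 ± 0.697 FPKM (Day 60). Of 5 coactivators tested, 2 fell and 0 rose over the same step, with a median of -0.19 log2 units.

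Among 11 genes known to respond to T3 in liver, 8 rose at birth and 0 fell, where 49.8% of all genes changed. Pck1, the enzyme that starts gluconeogenesis from oxaloacetate, rose by 7.25 log2 units and Cpt1a, which admits fatty acids to mitochondria, by 4.93. At weaning, 2 rose and 2 fell, where 7.19% of all genes changed. Thrsp, a lipogenic regulator, had 11.3 ± 4.98 FPKM (Day 20) and 171 ± 69.5 FPKM (Day 25), and Me1, the NADPH-making malic enzyme, 2.23 ± 0.229 and 14.2 ± 0.513 FPKM. Pck1 (-2.50 log2 units) and Cpt1a (-1.19) were lower at Day 25. Dio1 did not differ between these ages by the test (91.6 against 82.1 FPKM).

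**Figure D5:**
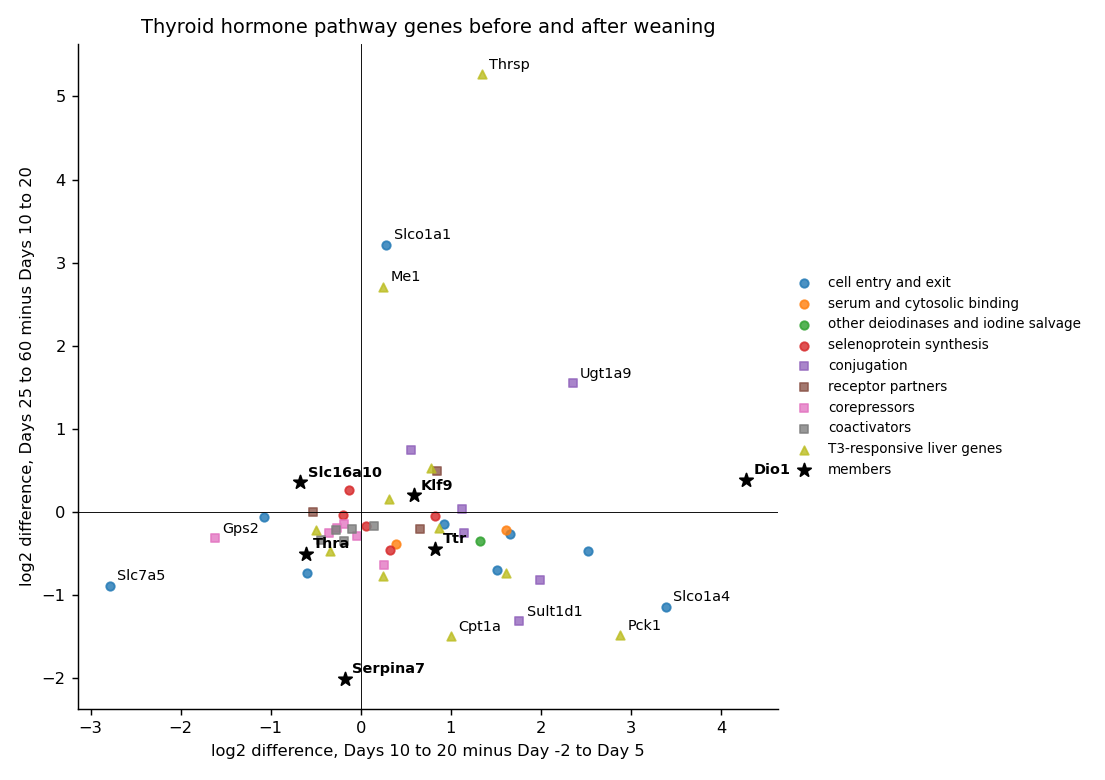
The 6 tested genes (stars) and the other pathway genes (symbols by list). The x axis is the log2 difference of Days 10 to 20 from Day -2 to Day 5, and the y axis that of Days 25 to 60 from Days 10 to 20. Dio1 lies furthest right (4.28), Thrsp furthest up (5.27), and Serpina7 lowest (-2.01).

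For each gene, the genes whose 12 age means of log2(FPKM + 1) correlated most with its own were listed as a description. For Dio1 these were Pecr and Gstk1 (both r = 0.991) and Inmt (0.989), for Ttr Slc25a25 (0.898), Gamt (0.893) and Tstd1 (0.885), and for Serpina7 Shroom3 and Gm9992 (both 0.980) and Inadl (0.972). For Thra they were Dctn4 (0.995), Trrap (0.991) and Sec24b (0.990), and for Thrb Ptprk (0.953), Ptprd (0.949) and Smarca2 (0.944). For Klf9 they were Fam134b (0.944), Arhgef26 (0.942) and Pccb (0.941), and for Slc16a10 Fn3k (0.928), Hebp1 (0.903) and Mafg (0.886). The best of these values was lower for Ttr than for each of the other 6 genes.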

How the data were processed

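Liver RNA of 36 male mice (3 at each of 12 ages) was sequenced as poly-A libraries that do not mark the strand. Per the labels and the submitters' processing notes, the authors aligned reads to mm9 with TopHat 1.2.0 and estimated abundance with Cufflinks 1.0.3, and the deposited table holds FPKM, normalised for length and mapped fragments, 1 value per gene symbol and mouse. No read counts were used. Steps between low FPKM values put the relative depth of the libraries at 0.860 to 1.14, and fragments per gene were estimated on an absolute scale set by 31 genes. This is approximate, since 38.0% of low values lay within 0.1 of a whole fragment.

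From these values, log2(FPKM + 1) was fitted with limma 3.58.1 in R 4.3.3 with 1 mean per age over all 36 mice, keeping the 11149 genes whose mean reached 1 FPKM at some age. This replaces the comparison with a control age that the study made gene by gene. p-values were adjusted by Benjamini-Hochberg over all genes, with a threshold of 0.05. The test was checked on simulated data. Mice are separate animals, so the spread includes biological variation. Ages were compared with Day 60, across birth (Day 1 and Day -2), across weaning (Day 25 and Day 20), and between blocks of ages. The members and gene lists were chosen with earlier results of these data known. Named genes are the 7 members, the genes with the largest called changes in each pathway list, and the 3 genes most like each member. The values of 1 pathway gene, which stays in the counts of its list, are not reported here. Alternatives were other scalings, filters, pseudocounts, a replicate block and leaving out each mouse. Removal of the length trend was added after seeing the data. Gene positions are from GENCODE M1 (mm9).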

Additional observations from a re-analysis of the deposited data

How the results depend on the processing

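The counts of members called at any age, at birth and between the blocks stayed within 1.5 times of the reported ones in every alternative, and that at weaning did not. There 0 of 6 were called as reported (7.19% of all genes). With a filter at 5 FPKM 1 of 5 was called, and with upper quartile scaling 1 of 6 (1105 of 11149 genes). With the length trend removed, a setting chosen after seeing the data, it was 1 of 6. The gene called was Slc16a10 in each case. Counts at single ages also moved. At Day 15 the count was 3 as reported and 0 without Day 60 mouse 1. At Days 20, 25 and 30 it was 1 and then 0 without Day 60 mouse 3. At Day 0 it was 3 (63.9% of all genes), with upper quartile scaling 5 (7288 of 11149 genes), and with TPM scaling or the length trend removed 4. Slc16a10 at Day 1 against Day 60 was not called with TPM scaling or without a filter (-0.62 and -0.56 log2 units, limma adjusted p = 0.0728 and 0.0619). With a pseudocount of 0.1 Dio1 was not called at Days 10, 25 and 30 (limma adjusted p = 0.075, 0.0785 and 0.0507). With 1 mouse left out the count at weaning ran from 0 to 1, and that of the pathway genes from 5 to 10 (10 reported). It was 5 without Day 25 mouse 2 and 6 without Day 20 mouse 2, Day 20 mouse 3 or Day 25 mouse 3. Serpina7 reversed with upper quartile scaling between Day -2 to Day 5 and Days 10 to 20 (0.25 log2 units against -0.17, neither called). The 30 values of the 6 tested genes at Day -2, at birth, at weaning and between the blocks kept their side of the threshold with a pseudocount of 0.1, with TPM scaling, without a filter and without a mean-variance trend. A stricter filter leaves Klf9 out. With a replicate block, the counts of members called at any age, at birth, at weaning and between the blocks were as reported. The 1 call of the 6 genes that changed was Slc16a10 at Day 1 against Day 60 (-0.56 log2 units in both, limma adjusted p = 0.047 and 0.0508). Mice with the same number correlated at a median r of 0.126 (198 pairs, 104 over 0.1, lowest -0.680) and those with different numbers at -0.0476. The numbers were taken as pairs only if every pair was over 0.1, and so were not. All 198 same-number pairs would have had to pass, so this rule cannot show that mice of the same number share nothing. Below about 1 FPKM, fragment number and length bias limit what can be seen. This holds for Thrb at every age, for Klf9 at Days -2, 0, 3, 5 and 10, and for Dio1 at Days -2 and 0.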
